A study of Caenorhabditis elegans with 12 samples.

Results

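The genes described here encode the enzymes that carry carbon through glycolysis, gluconeogenesis, the pyruvate dehydrogenase step, the tricarboxylic acid (TCA) cycle and the glyoxylate shunt in Caenorhabditis elegans. They were taken from a list of 41 named genes, and each was read from the array feature (probe set) annotated to it alone. All 41 were found, each with exactly 1 probe set, among 25478 genes with such a probe set. By role they were 19 genes of glycolysis, 4 of gluconeogenesis, 3 of the pyruvate dehydrogenase complex, 14 of the TCA cycle and 1, icl-1, of the glyoxylate shunt. Of these dld-1 serves the pyruvate and the 2-oxoglutarate dehydrogenase complexes alike, and it was counted with pyruvate dehydrogenase.

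The worms were wild type (strain N2), synchronised by hypochlorite treatment and overnight hatching, and fed Escherichia coli OP50 on agar (nematode growth medium, NGM) at 20 °C from L1 until they were L4 larvae. The NGM of each of 3 groups held 1 fatty acid at 1000 µM. These were linoleic acid (called LNA here), then gamma-linolenic acid (GLA), then dihomo-gamma-linolenic acid (DGLA). The control group had NGM without added acid. Ethanol, the solvent of the acids, was present at 1% (v/v) on every plate, controls included. Each group had 3 arrays, 12 in all, and nothing in the labels says that the 3 came from separate cultures, so p-values measure the spread between these samples, which may be technical. Each array carried total RNA of many whole larvae and of all tissues, so that fewer cells of a type and less RNA per cell cannot be told apart.

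Glycolysis splits glucose into pyruvate, and pyruvate dehydrogenase turns pyruvate into acetyl-CoA, which the TCA cycle oxidises. Beta-oxidation of fatty acids also ends in acetyl-CoA, so a fat-rich diet enters the same cycle past glycolysis. Most animals cannot make sugar from acetyl-CoA, but nematodes have a glyoxylate shunt, in which ICL-1 carries both isocitrate lyase and malate synthase activity and bypasses the steps that release carbon dioxide. The malate it yields can pass through oxaloacetate and phosphoenolpyruvate back up to sugar by gluconeogenesis. LNA, GLA and DGLA are successive polyunsaturated fatty acids of the worm's own pathway, GLA having a double bond more than LNA, and DGLA a longer chain than GLA.

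Values are log2 signals normalised by the authors with RMA (robust multi-array average), for 29317 probe sets, and array medians lay between 4.47 and 4.56. Each of the 41 genes lay above the median of every array. Arrays LNA 2 and LNA 3 stood apart from the other 10 arrays on the first principal component of all probe sets (42.0 and 35.7, against -18.0 to 3.64). Some LNA differences, though not all of those that move much, are also given without LNA 2 and LNA 3. Leaving out both left 1 LNA array and turned the sign of 19 of the 41 differences of LNA from control. That array, LNA 1, had the lowest weight of any array (0.409) in an alternative fit that weighted arrays by their spread. LNA 2 had a weight of 0.688 and LNA 3 of 1.30. Values without LNA 2 and LNA 3 thus rest on the LNA array weighted least, and which LNA arrays were unusual was not tested. The word called is used of a probe set whose p in limma's moderated test, adjusted by Benjamini and Hochberg's method across all probe sets, was under 0.05. Signals of different probe sets were not compared with each other.

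None of the 41 enzyme genes was called with any of the 3 acids. The measured differences from control were small. They ran from -0.30 to 0.36 on the log2 scale with LNA, from -0.13 to 0.25 with GLA and from -0.28 to 0.26 with DGLA (n = 3 arrays per group). In limma's test the lowest adjusted p of a member was 0.447 with LNA, 0.916 with GLA and 0.866 with DGLA. Among all probe sets 0.058% were called with LNA, 0.229% with GLA and 0.498% with DGLA. Leaving out LNA 1 brought in 1 call of 41 with LNA (2.44%), that of ogdh-1 described further on, in a fit that called 3.05% of all probe sets, and leaving out any other array brought in none in these 3 comparisons.

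At an unadjusted p under 0.05 in limma's test, 7 of the 41 genes passed with LNA, all with a positive difference, where 9.6% of all probe sets passed and 5.24% passed with a positive difference. The members were all above the array medians, whereas that share includes dim probe sets. In a fit of the 14658 brighter probe sets alone, 14.2% passed with LNA, beside the same count of 7 members. That count of 7 was 1 without LNA 2 and LNA 3, 2 without LNA 2, 3 without LNA 3, 12 without LNA 1 and 4 after a further normalisation between arrays (cyclic loess). With GLA 1 gene passed, where 5.46% of all probe sets did, and with DGLA 1 gene, where 5.69% did. The mean of the 3 acids against control called 0 of 41 (0.304% of all probe sets), with 4 genes at an unadjusted p under 0.05 (5.78%). A moderated F test of any difference among the 4 groups also called 0 of 41 (0.467%), with 3 at an unadjusted p under 0.05 (8.7%), and without LNA 1 it called 1, icl-1 (2.44% of members, where 3.15% of all probe sets were called).

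A p that misses the threshold does not show that levels were equal, so the width of the intervals matters. Taken one gene at a time, the 95% intervals of all 41 genes lay within a 2-fold change in either direction, with each acid. These intervals take 1 spread per gene, shared by the 4 groups. The LNA arrays of icl-1 and ogdh-1 had SDs of 0.378 and 0.351, against 0.202 and 0.0197 in controls. For such genes the intervals with LNA may be too narrow, and intervals with a separate LNA spread were not made. With the shared spread, 36 intervals with LNA lay within a 1.5-fold change, 41 with GLA and 40 with DGLA. The interval that reached furthest with LNA was that of aldo-1 upward (1.54-fold) and that of icl-1 downward (0.644-fold). With DGLA it was icl-1 upward (1.53-fold) and gpd-4 downward (0.673-fold). The members were also measured more tightly than the array as a whole, with a median standard error of 0.0998 against 0.136 for a log2 difference between groups. Dim probe sets are part of that whole, whereas the members all lay above the array medians, and equally bright probe sets were not compared.

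**Figure D1:**
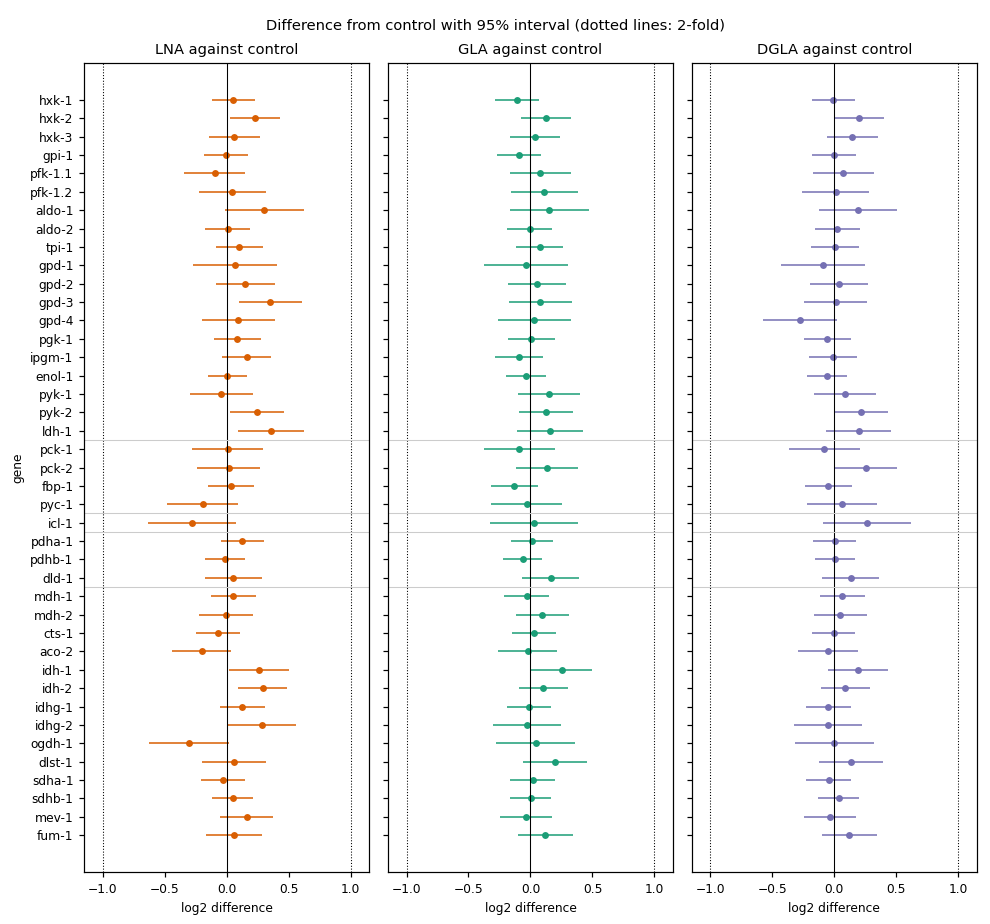
Log2 difference from control (horizontal axis) of each of the 41 genes, in order of role, for LNA, GLA and DGLA. Points are limma's estimates and lines their 95% intervals, gray lines part the roles, and the dotted lines at -1 and 1 mark a 2-fold change, which no interval reaches.

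The size that a member needed for a call was set by its standard error and by the largest p called in that comparison. For the median member it was 0.67 on the log2 scale with LNA, 0.57 with GLA and 0.52 with DGLA. It was lowest for the enolase gene enol-1 (0.49, 0.42 and 0.38 with LNA, GLA and DGLA) and highest for icl-1 (1.09, 0.93 and 0.85). As folds these sizes ran from 1.30 for enol-1 with DGLA to 2.13 for icl-1 with LNA, and a smaller difference with the same standard error was not called in the fit of all 12 arrays.

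**Figure D2:**
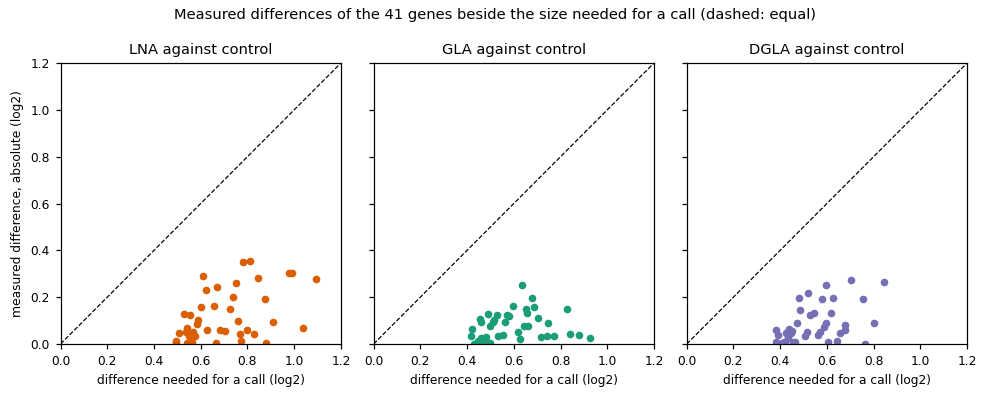
Absolute log2 difference from control of each of the 41 genes (vertical axis) against the log2 difference that gene needed for a call (horizontal axis), for LNA, GLA and DGLA. Every point lies below the dashed line of equality, and the highest measured difference with LNA, that of ldh-1, is 0.36.

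Across all 12 arrays the 41 genes held narrow ranges. The distance between a gene's lowest and highest array was 0.13 at the least, in enol-1, 0.42 at the median and 0.93 at the most, in icl-1, and it was under 0.5 in 29 of 41. After icl-1 the widest were ogdh-1 (0.83), gpd-4 (0.74), gpd-3 (0.73) and idhg-2 (0.70). LNA 2 alone was the highest array for 13 of the 41 genes and the lowest for 8, whereas every other array was highest or lowest for 8 genes at most.

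**Figure D3:**
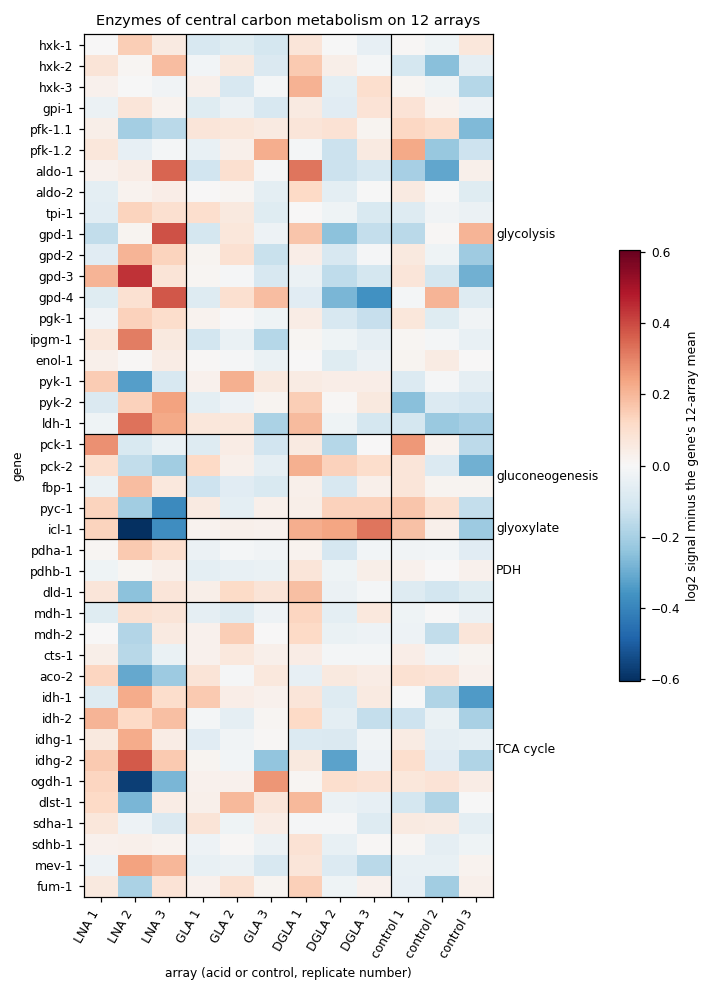
Log2 signal of each of the 41 genes (rows, by role) on each of the 12 arrays (columns) minus the gene's mean over the 12 arrays. Red is above and blue below that mean, and the deepest blue is icl-1 on LNA 2 (-0.60).

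The glyoxylate shunt gene icl-1 (C05E4.9) had the widest spread and the largest difference between acids. Its log2 signals were 10.51, 9.77 and 10.002 with LNA, 10.40, 10.41 and 10.40 with GLA and 10.60, 10.62 and 10.70 with DGLA, against 10.56, 10.41 and 10.16 in controls. All 3 DGLA arrays lay above all 3 control arrays, the GLA arrays lay between control values, and the LNA arrays were split, with LNA 1 among the controls and LNA 2 and LNA 3 below every control array. The mean was 10.10 ± 0.378 with LNA, 10.40 ± 0.00400 with GLA and 10.64 ± 0.0539 with DGLA, against 10.37 ± 0.202 in controls (SD, n = 3 each). In limma's test the difference from control was -0.28 (95% interval -0.63 to 0.076, adjusted p = 0.593) with LNA, 0.028 (95% interval -0.33 to 0.38, adjusted p = 0.999) with GLA and 0.26 (95% interval -0.092 to 0.62, adjusted p = 0.979) with DGLA. Without LNA 2 and LNA 3 the LNA difference turned positive, 0.14, and then rested on 1 LNA array. Control 3 was the lowest control, and without it the difference was 0.15 with DGLA and -0.081 with GLA.

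Gluconeogenesis runs glycolysis backwards with enzymes of its own at the steps that cannot be reversed. The phosphoenolpyruvate carboxykinase genes pck-1 and pck-2, which make phosphoenolpyruvate from oxaloacetate, had arrays that overlapped between most groups. Signals of pck-2 (R11A5.4) were 9.87, 9.63 and 9.56 with LNA, 9.89, 9.80 and 9.72 with GLA and 9.99, 9.91 and 9.88 with DGLA, against 9.85, 9.69 and 9.48 in controls. The DGLA arrays lay above the control arrays without overlap, and the difference of 0.25 (95% interval 0.0028 to 0.50, adjusted p = 0.866) was the 1 difference of a member with DGLA at an unadjusted p under 0.05. Without control 3, the lowest control array, it was 0.16. The mean of pck-2 was 9.69 with LNA, against 9.67 in controls. Without LNA 2 and LNA 3 its LNA difference was 0.20, from LNA 1 alone. Its paralogue pck-1 (W05G11.6) had 9.205, 8.84 and 8.89 with LNA, 8.85, 8.98 and 8.82 with GLA and 8.99, 8.76 and 8.93 with DGLA, against 9.19, 8.95 and 8.77 in controls, and there the control arrays alone spanned more than the 3 GLA or the 3 DGLA arrays. The differences of pck-1 from control were 0.0059 with LNA, -0.091 with GLA and -0.080 with DGLA. That with LNA was 0.23 without LNA 2 and LNA 3, from LNA 1 alone. Those with GLA and DGLA turned to 0.019 and 0.031 without control 1, and were -0.19 and -0.18 without control 3.

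Fructose-1,6-bisphosphatase, encoded by fbp-1 (K07A3.1), undoes the phosphofructokinase step. Its signals were 8.78, 9.004 and 8.88 with LNA, 8.69, 8.75 and 8.72 with GLA and 8.85, 8.72 and 8.85 with DGLA, against 8.89, 8.83 and 8.83 in controls. The GLA arrays all lay below the controls, which gave the lowest difference of any member with GLA, -0.13 (95% interval -0.32 to 0.057, adjusted p = 0.991). Pyruvate carboxylase, encoded by pyc-1 (D2023.2), supplies oxaloacetate from pyruvate to the cycle and to gluconeogenesis. It had 10.19, 9.84 and 9.67 with LNA, 10.11, 9.99 and 10.09 with GLA and 10.09, 10.19 and 10.19 with DGLA, against 10.22, 10.15 and 9.91 in controls, so that LNA 2 and LNA 3 were the lowest of the 12 arrays and LNA 1 lay with the controls. The difference with LNA was -0.19 (95% interval -0.48 to 0.091, adjusted p = 0.645), and 0.095 without LNA 2 and LNA 3. Of the 4 genes of gluconeogenesis none was called, and their median difference was 0.010 with LNA, -0.062 with GLA and 0.0073 with DGLA.

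**Figure D4:**
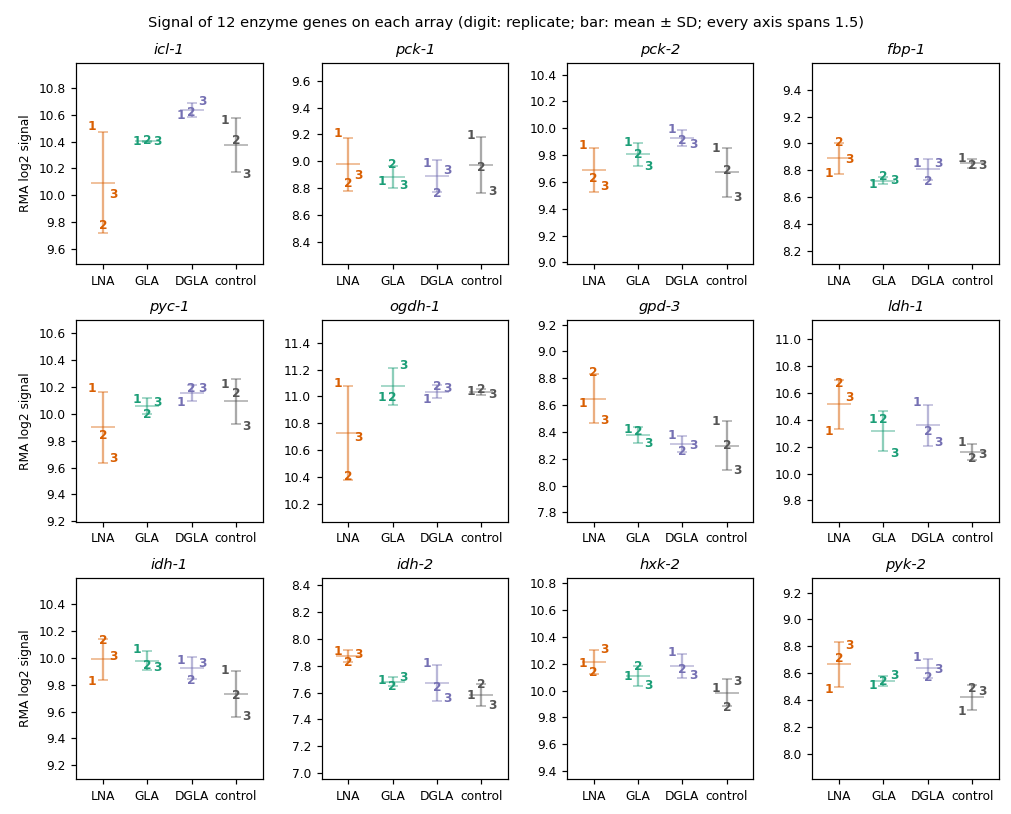
Log2 signal (vertical axis, every panel spanning 1.5) of 12 enzyme genes on each array, with LNA, GLA, DGLA and control along the horizontal axis. Digits are replicate numbers and bars the mean ± SD of 3 arrays; icl-1, pyc-1 and ogdh-1 show LNA 2 and LNA 3 low, and gpd-3 and ldh-1 show LNA arrays at the top.

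Hexokinases trap glucose in the cell as glucose 6-phosphate. Of the 3 hexokinase genes hxk-2 (H25P06.1) had the largest difference, with signals of 10.20, 10.13 and 10.31 with LNA, 10.11, 10.18 and 10.04 with GLA and 10.28, 10.16 and 10.11 with DGLA, against 10.02, 9.87 and 10.07 in controls. The LNA and the DGLA arrays lay above all controls, and the difference was 0.23 (95% interval 0.027 to 0.43, adjusted p = 0.495) with LNA, 0.12 with GLA and 0.20 with DGLA. The hxk-1 gene (F14B4.2) had 8.98, 8.999 and 8.96 with GLA, against 9.08, 9.05 and 9.14 in controls, all 3 GLA arrays being lower, with a difference of -0.11 (95% interval -0.28 to 0.066, adjusted p = 0.999). For hxk-3 the differences were 0.062, 0.035 and 0.15 with LNA, GLA and DGLA. The isomerase gene gpi-1, whose product makes fructose 6-phosphate, differed by -0.0056, -0.092 and -0.0022.

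Phosphofructokinase commits sugar to glycolysis, and its gene pfk-1.1 (Y71H10A.1) had 8.21, 7.97 and 8.01 with LNA, 8.24, 8.24 and 8.23 with GLA and 8.24, 8.26 and 8.19 with DGLA, against 8.30, 8.28 and 7.90 in controls. The low values were LNA 2, LNA 3 and control 3, and groups overlapped in every comparison with control. Its difference was -0.099 (95% interval -0.35 to 0.15, adjusted p = 0.794) with LNA, 0.078 with GLA and 0.072 with DGLA. All 3 turned sign with the arrays kept, the LNA value to 0.047 without LNA 2 and LNA 3, and the GLA and DGLA values to -0.051 and -0.056 without control 3. The paralogue pfk-1.2 differed by 0.044, 0.11 and 0.012.

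Aldolase splits fructose bisphosphate into triose phosphates. Its gene aldo-1 (T05D4.1) was among the 3 highest differences with LNA, at 0.30 (95% interval -0.016 to 0.62, adjusted p = 0.535), with 9.88, 9.902 and 10.21 with LNA, against 9.66, 9.54 and 9.89 in controls. LNA 3 was the highest of these, and LNA 1 lay just under control 3. The difference was 0.19 without LNA 2 and LNA 3. The second aldolase gene aldo-2 gave differences of 0.0082, -0.0063 and 0.026 and a distance of 0.19 between its lowest and highest array. The triosephosphate isomerase gene tpi-1 differed by 0.10, 0.075 and 0.0068.

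Glyceraldehyde-3-phosphate dehydrogenase has 4 genes, gpd-1 to gpd-4, which are close copies of each other, so that a probe set may take up signal of a relative, and differences between them are uncertain. The neighbouring genes gpd-2 (K10B3.8) and gpd-3 (K10B3.7) had positive mean differences with LNA over all arrays. Signals of gpd-3 were 8.61, 8.85 and 8.49 with LNA, 8.42, 8.401 and 8.31 with GLA and 8.37, 8.25 and 8.30 with DGLA, against 8.48, 8.30 and 8.12 in controls, with every LNA array above every other array of the gene, and the difference with LNA was 0.35 (95% interval 0.096 to 0.60, adjusted p = 0.455). Without LNA 2 and LNA 3 it was 0.31, from 1 array. For gpd-2 it was 0.15 (95% interval -0.086 to 0.39, adjusted p = 0.667), and -0.010 without LNA 2 and LNA 3. The pair gpd-1 and gpd-4 gave the lowest differences with DGLA. Signals of gpd-4 (F33H1.2) were 5.99, 5.78 and 5.69 with DGLA, against 6.04, 6.26 and 5.98 in controls, with DGLA 1 and control 3 overlapping, and the difference was -0.28 (95% interval -0.57 to 0.020, adjusted p = 0.912). Those of gpd-1 (T09F3.3) were 6.87, 6.45 and 6.55 with DGLA, against 6.53, 6.70 and 6.90 in controls, with a difference of -0.090 (95% interval -0.43 to 0.25) and arrays that overlapped. That of gpd-1 was 0.0046 without control 3.

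The phosphoglycerate kinase gene pgk-1 differed by 0.084, 0.0062 and -0.056 with LNA, GLA and DGLA, and enol-1 by 0.0059, -0.035 and -0.058. Nematodes use a phosphoglycerate mutase that needs no cofactor, encoded by ipgm-1 (F57B10.3), which had 8.59, 8.83 and 8.58 with LNA, 8.41, 8.48 and 8.34 with GLA and 8.53, 8.49 and 8.46 with DGLA, against 8.53, 8.51 and 8.47 in controls. Its LNA arrays lay above all controls by a mean of 0.16 (95% interval -0.036 to 0.36, adjusted p = 0.581), which was 0.083 without LNA 2 and LNA 3, and its mean with GLA was -0.094 from control.

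Pyruvate kinase closes glycolysis, and its 2 genes did not show the same order of arrays. The pyk-2 gene (ZK593.1) had 8.48, 8.71 and 8.81 with LNA, 8.51, 8.54 and 8.58 with GLA and 8.71, 8.57 and 8.63 with DGLA, against 8.31, 8.48 and 8.46 in controls. Every GLA and DGLA array lay above every control array, as did LNA 2 and LNA 3, whereas LNA 1 lay just under control 2. Differences were 0.25 (95% interval 0.027 to 0.46, adjusted p = 0.498) with LNA, 0.12 with GLA and 0.22 (95% interval -0.00080 to 0.44, adjusted p = 0.880) with DGLA, and that with LNA was 0.060 without LNA 2 and LNA 3. The pyk-1 gene (F25H5.3) had 8.82, 8.33 and 8.57 with LNA, 8.69, 8.88 and 8.72 with GLA and 8.71, 8.702 and 8.702 with DGLA, against 8.58, 8.65 and 8.61 in controls, with GLA and DGLA again above all controls but LNA 2 the lowest of the 12 arrays. Its differences were -0.043, 0.15 and 0.090 with LNA, GLA and DGLA. Without LNA 2 and LNA 3 that with LNA turned to 0.20, from LNA 1 alone.

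Lactate dehydrogenase, encoded by ldh-1 (F13D12.2), turns pyruvate into lactate and renews the NAD that glycolysis needs. It had the highest difference of any member with LNA. Signals were 10.32, 10.67 and 10.57 with LNA, 10.41, 10.41 and 10.15 with GLA and 10.53, 10.31 and 10.23 with DGLA, against 10.23, 10.11 and 10.14 in controls. Every LNA and every DGLA array lay above every control array, and GLA 3 overlapped the controls. The difference was 0.36 (95% interval 0.092 to 0.62, adjusted p = 0.469) with LNA, 0.16 (95% interval -0.11 to 0.42, adjusted p = 0.999) with GLA and 0.20 (95% interval -0.066 to 0.46, adjusted p = 0.974) with DGLA. Without LNA 2 and LNA 3 that with LNA was 0.15, and without DGLA 1 that with DGLA was 0.11. Over the 19 genes of glycolysis the median difference was 0.084 with LNA, 0.052 with GLA and 0.012 with DGLA, beside medians of 0.022, -0.0023 and -0.0055 over all probe sets.

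Pyruvate dehydrogenase, the gate from glycolysis to the cycle, had 3 genes on the list. Its alpha subunit gene pdha-1 (T05H10.6) had 9.53, 9.67 and 9.62 with LNA, 9.48, 9.50 and 9.50 with GLA and 9.54, 9.42 and 9.50 with DGLA, against 9.49, 9.50 and 9.45 in controls. The LNA arrays were all above the controls, by a mean of 0.13 (95% interval -0.045 to 0.30, adjusted p = 0.614), or 0.049 without LNA 2 and LNA 3. The beta subunit gene pdhb-1 differed by -0.012, -0.064 and 0.0097 with LNA, GLA and DGLA. The dihydrolipoamide dehydrogenase gene dld-1 (LLC1.3) was among the 3 highest differences with GLA. It had 10.91, 10.59 and 10.92 with LNA, 10.87, 10.96 and 10.92 with GLA and 11.03, 10.81 and 10.83 with DGLA, against 10.76, 10.73 and 10.77 in controls, with GLA and DGLA arrays all above the controls and LNA 2 the lowest of the 12. The difference with GLA was 0.16 (95% interval -0.064 to 0.39, adjusted p = 0.991).

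Citrate synthase, which brings acetyl-CoA into the TCA cycle, is encoded by cts-1 (T20G5.2). Its signals were 12.10, 11.90 and 12.03 with LNA, 12.09, 12.13 and 12.10 with GLA and 12.11, 12.06 and 12.06 with DGLA, against 12.11, 12.05 and 12.09 in controls, with LNA 2 the lowest of the 12 arrays. The differences were -0.069 (95% interval -0.25 to 0.11, adjusted p = 0.798) with LNA, 0.027 with GLA and -0.0054 with DGLA, and that with LNA was 0.022 without LNA 2 and LNA 3. Mitochondrial aconitase, encoded by aco-2 (F54H12.1), makes the isocitrate that the cycle and the glyoxylate shunt share. It had 11.52, 11.08 and 11.17 with LNA, against 11.48, 11.48 and 11.42 in controls. LNA 2 and LNA 3 were below every control array and LNA 1 above them, and the difference was -0.20 (95% interval -0.44 to 0.038, adjusted p = 0.570), or 0.062 without LNA 2 and LNA 3.

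Isocitrate dehydrogenases come in NADP-dependent (idh-1, idh-2) and NAD-dependent forms, of which idhg-1 and idhg-2 encode gamma subunits. The idh-1 gene (F59B8.2) had the highest difference of any member with GLA. It had 9.83, 10.13 and 10.01 with LNA, 10.06, 9.95 and 9.93 with GLA and 9.98, 9.83 and 9.96 with DGLA, against 9.904, 9.72 and 9.56 in controls. The GLA arrays lay above every control array, and the LNA and DGLA arrays each overlapped control 1. Differences were 0.26 (95% interval 0.017 to 0.51, adjusted p = 0.506) with LNA, 0.25 (95% interval 0.0077 to 0.50, adjusted p = 0.916) with GLA and 0.19 (95% interval -0.051 to 0.44, adjusted p = 0.958) with DGLA. That with LNA was 0.096 without LNA 2 and LNA 3, and that with DGLA was 0.11 without control 3. Taken over the 3 acids together, idh-1 had the lowest adjusted p of any member (0.786 in limma's test, mean difference 0.24).

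The idh-2 gene (C34F6.8) had 7.91, 7.82 and 7.88 with LNA, against 7.58, 7.66 and 7.50 in controls. All 3 LNA arrays, LNA 1 included, were above every control array, and the difference of 0.29 (95% interval 0.092 to 0.49, adjusted p = 0.447) had the lowest adjusted p of a member with LNA. Without LNA 2 and LNA 3 it was 0.33. For idhg-2 (C30F12.7) signals were 6.74, 6.95 and 6.74 with LNA, against 6.68, 6.51 and 6.40 in controls, and the difference was 0.28 (95% interval 0.0056 to 0.56, adjusted p = 0.519). For idhg-1 it was 0.13. These were 0.21 for idhg-2 and 0.075 for idhg-1 without LNA 2 and LNA 3. With GLA and DGLA both gamma subunit genes differed by -0.049 to -0.012 from control.

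The 2-oxoglutarate dehydrogenase complex, a later step that releases carbon dioxide and that the glyoxylate shunt bypasses, is encoded in part by ogdh-1 and dlst-1. The E1 subunit gene ogdh-1 (T22B11.5) had the lowest difference of any member with LNA. Signals were 11.10, 10.40 and 10.69 with LNA, 10.995, 10.99 and 11.23 with GLA and 10.98, 11.07 and 11.06 with DGLA, against 11.03, 11.05 and 11.01 in controls. LNA 1 was above every control array and LNA 2 and LNA 3 below them, and the difference was -0.30 (95% interval -0.62 to 0.019, adjusted p = 0.538). Without LNA 2 and LNA 3 it turned to 0.065, and without LNA 1 it was -0.49 and passed (adjusted p = 0.0464 in limma's test), so the sign and the call both hung on which LNA arrays were kept. The E2 subunit gene dlst-1 (W02F12.5) had 10.22, 10.39 and 10.27 with GLA, against 10.09, 10.01 and 10.19 in controls, the GLA arrays all being higher, with a difference of 0.20 (95% interval -0.063 to 0.46, adjusted p = 0.980).

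Of succinate dehydrogenase, the enzyme that the TCA cycle shares with the respiratory chain, 3 subunit genes were measured. The flavoprotein gene sdha-1 differed by -0.032, 0.017 and -0.046 with LNA, GLA and DGLA, and the iron-sulfur subunit gene sdhb-1 by 0.048, 0.0015 and 0.037. The cytochrome b subunit gene mev-1 gave 0.16, -0.037 and -0.033, with LNA 2 and LNA 3 the highest of its 12 arrays and an LNA difference of -0.0082 without them. The fumarase gene fum-1 gave 0.059, 0.12 and 0.12, and the malate dehydrogenase genes gave 0.053, -0.032 and 0.066 for mdh-1 and -0.0046, 0.095 and 0.051 for mdh-2. Over the 14 genes of the cycle the median difference was 0.056 with LNA, 0.022 with GLA and 0.019 with DGLA.

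Counted by sign alone, 30 of the 41 differences were positive with LNA (73.2%, beside 55.3% of all probe sets), 26 with GLA (63.4%, beside 49.4%) and 26 with DGLA (63.4%, beside 48.4%). The 3 comparisons share their control arrays. After cyclic loess 22 were positive with LNA, and the members' median there was 0.0015 in place of 0.054. Without control 3 the positive differences numbered 19 with GLA and 20 with DGLA, and their medians were -0.013 and -0.0020 in place of 0.028 and 0.012. Without DGLA 1 there were 20 with DGLA. Arrays of the 2 groups did not overlap for 8 of the 41 genes with LNA (19.5%), all of them higher and 0 lower, where 12% of all probe sets did not overlap and 8.06% were so and higher (3.9% lower). With GLA it was 9 genes, 5 higher and 4 lower (22%, beside 11.7%, made up of 5.56% higher and 6.17% lower). With DGLA it was 7, all higher (17.1%, beside 10.8%, made up of 5.3% higher and 5.45% lower). The difference between these shares and those of all probe sets was not tested. Dim probe sets are included in the shares of all probe sets, whereas the 41 members all lay above the array medians.

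Set against each other, the acids did not separate any of the 41 genes in limma's test either. For GLA against LNA, which differ by a double bond, 0 of 41 were called (0.0614% of all probe sets) and 4 had an unadjusted p under 0.05 (11%). For DGLA against GLA, which differ in chain length, 0 were called (0.075%) and 1 had an unadjusted p under 0.05 (5.15%). For DGLA against LNA it was again 0 (0.317%), with 5 at an unadjusted p under 0.05 (11.8%). Without LNA 1 the count was 2 for GLA against LNA and 2 for DGLA against LNA, the genes icl-1 and ogdh-1 in both (4.88% of members). Those fits called 3.28% and 4.64% of all probe sets. In the fit without dim probe sets, 7 members had an unadjusted p under 0.05 for GLA against LNA, where 17.6% of the probe sets kept did. For DGLA against LNA it was 7 members, where 18.8% did. In each of the 3 comparisons over all arrays the 95% intervals of all 41 genes, again from the shared spread, lay within a 2-fold change. The one that reached furthest was that of icl-1 for DGLA against LNA, at 1.86-fold.

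The largest difference between acids was also that of icl-1, 0.54 (95% interval 0.19 to 0.90, adjusted p = 0.284) for DGLA against LNA, with all 3 DGLA arrays above all 3 LNA arrays. It was 0.13 without LNA 2 and LNA 3, and 0.75 without LNA 1, where it passed (adjusted p = 0.00562). For GLA against LNA it was 0.31 (95% interval -0.049 to 0.66, adjusted p = 0.5002), and 0.51 without LNA 1 (adjusted p = 0.0493). For DGLA against GLA, a comparison with no LNA array in it, the 3 DGLA arrays of icl-1 lay above the 3 GLA arrays. The difference there was 0.24 (95% interval -0.12 to 0.59, adjusted p = 0.9997 in limma's test). For ogdh-1 the difference was 0.34 (95% interval 0.023 to 0.67, adjusted p = 0.432) for GLA against LNA and 0.30 (95% interval -0.017 to 0.63, adjusted p = 0.445) for DGLA against LNA. Without LNA 1 these were 0.53 (adjusted p = 0.0295) and 0.49 (adjusted p = 0.0344), and without LNA 2 and LNA 3 they were -0.024 and -0.063.

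Several genes of glycolysis had the opposite sign to icl-1, with lower means under GLA or DGLA than under LNA, and none of them passed. For gpd-3 the difference was -0.34 (95% interval -0.59 to -0.085, adjusted p = 0.322) for DGLA against LNA and -0.27 (95% interval -0.52 to -0.017, adjusted p = 0.434) for GLA against LNA, without overlap of arrays in either. It was -0.25 (95% interval -0.45 to -0.058, adjusted p = 0.394) for ipgm-1 with GLA against LNA. For gpd-4 it was -0.37 (95% interval -0.66 to -0.074, adjusted p = 0.336) with DGLA against LNA and -0.31 (95% interval -0.60 to -0.012, adjusted p = 0.959) with DGLA against GLA, and the first of these was -0.16 without LNA 2 and LNA 3. In the TCA cycle idhg-2 had -0.33 (95% interval -0.60 to -0.054, adjusted p = 0.349) for DGLA against LNA. Arrays did not overlap for 13 of 41 genes in GLA against LNA, 1 higher and 12 lower with GLA, where 14.9% of all probe sets did not overlap (4.78% higher and 10.1% lower). In DGLA against GLA it was 3 genes, all higher with DGLA (hxk-1, icl-1 and pdhb-1), beside 11.1% of all probe sets (5.54% higher and 5.55% lower). In DGLA against LNA it was 8, with 2 higher and 6 lower, beside 12.8% (4.33% higher and 8.45% lower). These counts were not tested against the shares of all probe sets, which include dim ones. After cyclic loess the members' median for GLA against LNA was -0.0035 in place of -0.052. There 19 members were positive and 22 negative, in place of 14 and 27. For DGLA against LNA the median was 0.032 in place of -0.032.

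The members that were low on LNA 2 and LNA 3 tended to be long genes, and those that were high tended to be short. Gene length, here the span in the reference gene table, was known for all 41, from mev-1 (892 bases) to hxk-2 (11587 bases). Across the 41 genes the deviation from the 12-array mean correlated (Pearson's r) with log2 gene length at -0.40 on LNA 2 and -0.50 on LNA 3, against 0.33 on LNA 1. On the other arrays this correlation was 0.11, -0.12 and 0.10 for GLA, 0.089, 0.52 and 0.52 for DGLA, and 0.18, 0.11 and -0.086 for control. Over 18812 protein-coding genes it was -0.31 on LNA 2, -0.33 on LNA 3 and 0.17 on LNA 1, so the same signs held over the whole array. These are descriptions across genes, which are not independent and were hybridised together.

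The 20 shorter members had a median deviation of 0.11 on LNA 2 and 0.10 on LNA 3, and the 21 longer ones of -0.032 and -0.014. On LNA 1 the medians were -0.0093 for the shorter and 0.069 for the longer. Genes of body wall muscle were low on the same arrays. Their 10 markers had a median deviation of -0.57 on LNA 2 and -0.19 on LNA 3, against 0.15 on LNA 1, and their summed level ran from 14.51 to 15.04 (log2) on the LNA arrays, against 14.95 to 15.02 on the controls. The 12 markers of molting and hypodermis spread over other arrays, with a median deviation of 0.50 on GLA 1, against 0.47 on control 1 and -0.56 on control 3. The 12 oocyte and eggshell markers were at 0.25 on control 3, the array that was lowest of the controls for icl-1, pck-2, pfk-1.1 and idh-1. Other tissues also deviated on LNA 2 and LNA 3. Medians there were 0.028 and 0.19 for oocyte and eggshell, and 0.13 and 0.20 for sperm (7 of 20 listed genes found). For intestine they were 0.16 and 0.082, and for neuron 0.063 and 0.051. Negative medians were those of germ line, -0.16 and -0.017, and of molting and hypodermis, -0.040 and -0.15. Of 70 markers of 7 tissues 68 lay above the array median and 0 were called with any acid. The part of gene length or of tissue makeup in the LNA values of ogdh-1, icl-1, pyc-1 and aco-2, or in the values that rest on control 3, was not tested.

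**Figure D5:**
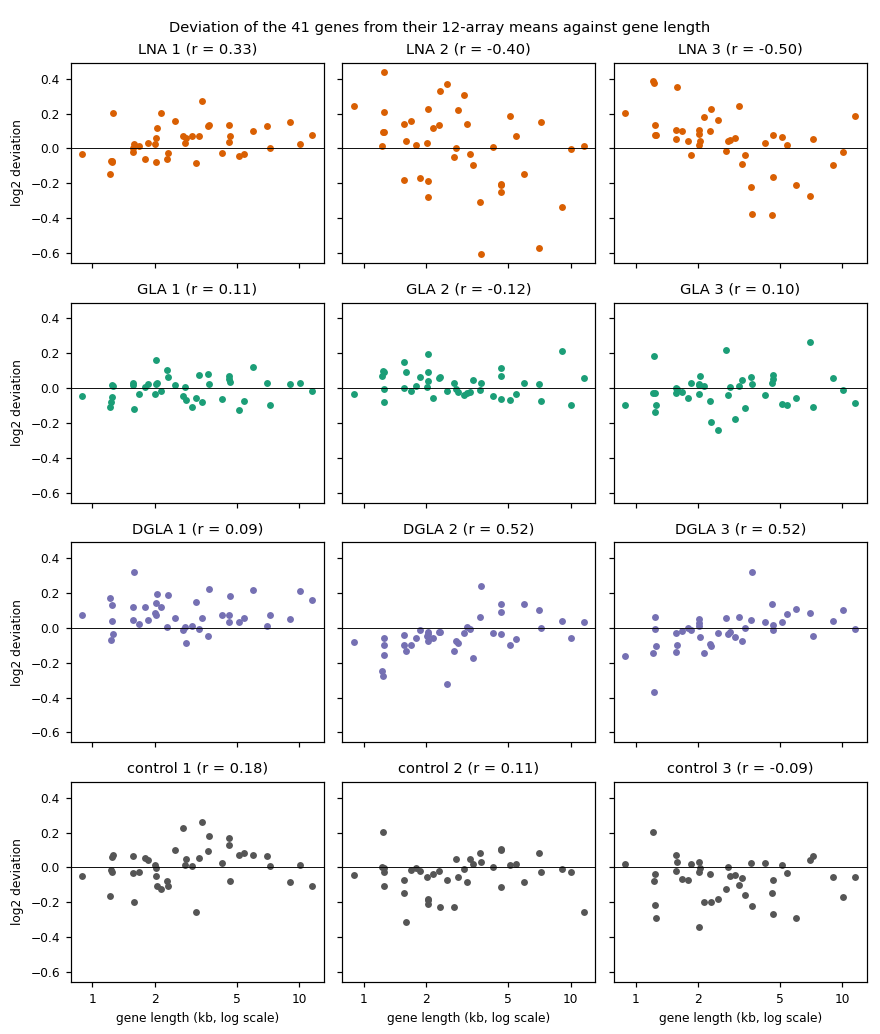
Deviation of each of the 41 genes from its 12-array mean (vertical axis, log2) against gene length in kilobases (horizontal axis, log scale), 1 panel per array with Pearson's r across genes. The slope is negative on LNA 2 and LNA 3 and positive on DGLA 2 and DGLA 3.

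Enzymes beside these routes gave the same count. A further 75 genes in 6 lists were set beside the members, 71 of them with a probe set of their own (all but fgt-1, agl-1, hif-1 and egl-9), and 0 of 71 were called in limma's test with any acid, in the mean of the acids or between acids. At an unadjusted p under 0.05 there were 7 of 71 with LNA (beside 9.6% of all probe sets), 1 with GLA (5.46%) and 2 with DGLA (5.69%). Between acids there were 9 for GLA against LNA (11%), 1 for DGLA against GLA (5.15%) and 10 for DGLA against LNA (11.8%). The remaining subunits of the TCA cycle, 10 genes, had a median difference of 0.070 with LNA, -0.012 with GLA and 0.046 with DGLA. Among them the succinyl-CoA ligase subunit gene suca-1 had 10.57, 9.79 and 10.32 with LNA, against 10.57, 10.57 and 10.59 in controls. As in ogdh-1, LNA 2 and LNA 3 were low and LNA 1 was not, and the difference was -0.35 (95% interval -0.69 to -0.0071, adjusted p = 0.519), or -0.0024 without LNA 2 and LNA 3. The 16 further genes of glycolysis and pyruvate handling had medians of 0.080, -0.026 and -0.050 with LNA, GLA and DGLA, and the pyruvate dehydrogenase kinase gene pdhk-2, whose product switches that complex off, differed by 0.094, -0.055 and 0.053.

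The pentose phosphate pathway, which draws glucose 6-phosphate off glycolysis to make NADPH, was represented by 7 genes with medians of 0.082, 0.047 and 0.073 with LNA, GLA and DGLA. Its entry enzyme, glucose-6-phosphate dehydrogenase (gspd-1), had 7.49, 7.70 and 7.74 with LNA, 7.49, 7.58 and 7.58 with GLA and 7.74, 7.70 and 7.58 with DGLA, against 7.19, 7.45 and 7.53 in controls. The DGLA difference of 0.28 (95% interval 0.044 to 0.52, adjusted p = 0.720) had the lowest adjusted p of the 71 genes with that acid. Glycogen and trehalose, the worm's sugar stores, had 17 genes with medians of 0.057, -0.011 and -0.034. The trehalase gene tre-4 had the highest difference of the 71 with LNA, 0.48 (95% interval 0.17 to 0.78, adjusted p = 0.407), from signals of 5.79, 6.18 and 6.00 with LNA, against 5.68, 5.45 and 5.40 in controls, where all 3 LNA arrays were higher. It was 0.28 without LNA 2 and LNA 3.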

How the data were processed

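Total RNA was hybridised as biotin-labelled cRNA to whole-transcript Affymetrix arrays. The deposited values are log2 signals that the authors made with RMA, per the submitters' processing notes. The same notes list 2 Affymetrix programs, Transcriptome Analysis Console and Expression Console, without their settings. Background correction and probe summarisation were not repeated. All 29317 probe sets of the 12 arrays entered 1 fit of group means with limma 3.58.1 (lmFit and eBayes, R 4.3.3; 11.6 degrees of freedom), with no replicate block, and tests were two-sided. The fit was tested on simulated data. Gene names came from the platform annotation. Gene lengths and the neighbouring places of gpd-2 and gpd-3 came from the reference table of assembly WBcel235. Positions of probe sets were not used, because the files do not say on which build the array was annotated. Each member had 1 probe set with its symbol alone. Signals on single arrays, for some genes of only 2 groups, were given for control-point enzymes and for the 3 highest and 3 lowest differences with each acid. They were also given for some paralogues, and the other paralogues were described by their differences alone. The genes suca-1, gspd-1, tre-4, mmaa-1, pccb-1, acdh-1, pdhk-2, nhr-49 and rhy-1 were chosen for mention from the neighbouring lists after their values were seen. So were idhg-2, ipgm-1 and mev-1 among the members. The members and lists were chosen with earlier results of these data known. Alternatives covered normalisation, dim probe sets, the variance prior, array weights, pairing, the arrays that lend spread and each array left out.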

Additional observations from a re-analysis of the deposited data

How the results depend on the processing

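The count of called members was 0 in all 8 comparisons, and it was recomputed under 20 alternatives, which gave 158 counts, of which 154 were 0. The exceptions all came from leaving out LNA 1, which left the 2 LNA arrays that stand apart and raised the calls over all probe sets too, to 895, against 17 with all arrays, for LNA against control, to 961, against 18, for GLA against LNA, to 1359, against 93, for DGLA against LNA and to 924, against 137, for any difference. Over the leave-one-out settings the count ran from 0 to 1 for LNA against control (ogdh-1), from 0 to 2 for GLA against LNA (ogdh-1 and icl-1), from 0 to 2 for DGLA against LNA (icl-1 and ogdh-1) and from 0 to 1 for any difference among the 4 groups (icl-1, adjusted p = 0.0312); in the other 4 comparisons it was 0 throughout. With the replicate block (the number of a replicate as a term of the fit) the count stayed 0 in all 8, with a lowest adjusted p of 0.320 in limma's test. Correlations between same-numbered arrays of different groups ran from -0.13 to 0.22, with 3 of 18 over 0.1. Those between arrays of different numbers ran from -0.16 to 0.14, and 6 of 12 arrays correlated best with their own number. Correlations so few and weak cannot decide whether the arrays were paired by number. Counts were also 0 after cyclic loess, without dim probe sets, with a trended robust prior, with array weights (lowest adjusted p 0.0565, icl-1 for DGLA against LNA), from the arrays of the 2 groups alone, and without LNA 2 and LNA 3, an alternative that assumes the lone LNA array to vary like the others. Of 287 differences (41 genes, 7 comparisons) 24 moved by more than the spread between replicates after cyclic loess and 75 without LNA 2 and LNA 3. The 287 include GLA against control, DGLA against control and DGLA against GLA, whose differences could not move without LNA 2 and LNA 3. Without them the sign turned in 19 of the 41 differences of LNA from control. Averaging the probe sets of a gene changed nothing, each member having 1. The number of arrays limits the precision.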

Other observations

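Genes that feed odd-chain and branched carbon into the TCA cycle through propionate gave no call in limma's test. The 11 genes of the propionate routes had median differences of 0.058 with LNA, 0.0064 with GLA and 0.0066 with DGLA. With LNA and with DGLA the largest difference from control was in mmaa-1, and with GLA it was in pccb-1, at 0.21. The mmaa-1 gene, whose human counterpart encodes a chaperone of methylmalonyl-CoA mutase, had 9.13, 9.25 and 9.11 with LNA, 9.06, 8.90 and 9.11 with GLA and 9.17, 8.96 and 9.26 with DGLA, against 8.97, 8.85 and 8.77 in controls. Its mean difference over the 3 acids was 0.24 (adjusted p = 0.702), the lowest adjusted p of the 71 neighbouring genes in that comparison. The acyl-CoA dehydrogenase acdh-1 of the propionate shunt differed by 0.039, -0.082 and -0.087 with LNA, GLA and DGLA.

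Of 10 regulators of carbon metabolism with a probe set of their own none was called. The nuclear receptor gene nhr-49, a regulator of fat metabolism, had 9.49, 9.46 and 9.41 with LNA, 9.48, 9.396 and 9.44 with GLA and 9.47, 9.47 and 9.41 with DGLA, against 9.32, 9.31 and 9.22 in controls. Its differences were 0.17 (95% interval -0.0017 to 0.33, adjusted p = 0.523) with LNA, 0.15 (95% interval -0.016 to 0.32, adjusted p = 0.953) with GLA and 0.16 (95% interval -0.0049 to 0.33, adjusted p = 0.894) with DGLA in limma's test. The hypoxia pathway gene rhy-1 had the widest difference between acids among the 71, -0.57 for DGLA against LNA (adjusted p = 0.312 in limma's test). It was -0.45 without LNA 2 and LNA 3. Signals were 8.54, 8.399 and 8.08 with DGLA, against 8.79, 8.83 and 9.11 with LNA. The controls, at 8.23, 8.62 and 9.02, ranged from among the DGLA values to among the LNA values. The probe sets of hif-1 and egl-9 carry more than 1 gene entry in the annotation and were not analysed here.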
